A study of Mus musculus with 24 samples.

Results

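A panel of 10 immediate early genes was followed through sorted sensory neurons to see how evenly the response to dissociation and sorting was spread over libraries, mice and genotypes. The members were chosen by name: Fos, Fosb and Fosl2, Junb and Jund, Egr1, Nr4a1, Arc, Ier2 and Dusp1. They are 10 of the 47643 gene identifiers in the count files, and all 10 had enough counts to be tested. Immediate early genes are transcribed within minutes of a stimulus, without new protein synthesis, when MAP kinase or calcium signalling activates transcription factors such as SRF and CREB that already sit at their promoters. Enzymatic dissociation of a tissue is a well-known inducer, and in neurons the same genes also respond to electrical activity and axon injury. The series has no undissociated sample, so transcripts present before dissociation and those made during it cannot be told apart.

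RNA-seq was performed on 24 libraries, each of about 100 GFP-positive L4 dorsal root ganglion (DRG) neurons sorted by flow cytometry after papain and collagenase treatment. All mice carried Nav1.8-Cre and the Rosa26-ZsGreen reporter, control mice with Tsc2 flox/+ and Nav-Tsc2 mice with Tsc2 flox/null, on a mixed C57BL/6 and AJ background at 8 to 9 weeks of age. Each genotype had 4 mice, replicates 1 and 2 male and replicates 3 and 4 female, and each mouse gave 3 technical libraries (A, B and C), so the mouse is the replicate for any comparison of genotypes. The Nav1.8 promoter drives Cre in most nociceptors and in some myelinated neurons, the controls also lose 1 Tsc2 allele in those cells, and the ganglia came from the side opposite a sciatic nerve crush, 3 d after it. Control libraries held 12210899 to 28641787 gene counts and Nav-Tsc2 libraries 8339220 to 34228180. Values are CPM, each gene's counts brought to the same total in every library after TMM normalization. As a check of the labels, Tsc2 was at 13.4, 24.7, 21.5 and 24.1 CPM in control mice 1 to 4 and at 8.70, 8.51, 7.30 and 10.95 CPM in Nav-Tsc2 mice, with no overlap. Neuron markers (7 genes) summed to 10449 to 17805 CPM in control and 14189 to 17584 CPM in Nav-Tsc2 libraries, whereas the endothelial markers never summed to more than 41.4 CPM and the macrophage markers to no more than 37.3 CPM. The fibroblast markers (6 genes) summed to 35.7 to 476 CPM in control and 98.5 to 293 CPM in Nav-Tsc2 libraries, with 388 CPM in the control library 4A described next.

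A single library stood apart for these genes and is given before the results. Control 4A, from a female mouse, had 58.3 CPM for the 10 members together, against 250.3 to 535 CPM in the other 11 control libraries and 331 to 513 CPM in Nav-Tsc2 libraries. Its median Pearson correlation with the other libraries across genes (0.929) was below that of the other 23 (0.943 to 0.966). Its depth was ordinary, at 13755723 gene counts, and 3 other control libraries had fewer. It was also the library in which the most genes had their lowest value (14.3% of 8446 genes with a mean of at least 10 CPM) and their highest value (14.0%). For the members, the genotype calls, the BCV and SD, and the likeness results below are given with and without it. Leaving it out was chosen after its values were seen. The genotype results of the other lists, the test between mice and the highest-to-lowest ratios within mice are given with it only.

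The cyclic AMP response element (CRE) bound by CREB is a known element of promoters of this kind, and the sequences are shown because they let a reader see which members carry it. RefSeq windows of 300 bases, from 250 before to 50 after a transcript's start (GRCm38.p6), were matched for 7 of the members: Fos, Fosb, Fosl2, Junb, Jund, Nr4a1 and Dusp1. The palindrome TGACGTCA stood in 1 of the 7, Dusp1, and in 1.79% of all 32851 windows. Its core, TGACG or CGTCA on the printed strand and therefore found on either strand, stood in 5 of the 7 (Fos, Fosb, Junb, Nr4a1 and Dusp1) and in 20.8% of all windows, each full CRE being counted here as well. Neither the AP-1 site TGACTCA or TGAGTCA, in 5.20% of all windows, nor the serum response element (CC, a run of A or T, GG), in 1.63%, was found in any of the 7. The serum response element search took exact matches only and covers this short window alone. Elements with a mismatch or farther upstream would be missed, so its absence here does not show that these genes lack it. The stretch upstream of the start is printed 5′ to 3′ for 4 members, without bases that the annotation places in an exon, and capitals mark the CRE and its cores.
Fos, chr12:85473640-85473889, plus strand: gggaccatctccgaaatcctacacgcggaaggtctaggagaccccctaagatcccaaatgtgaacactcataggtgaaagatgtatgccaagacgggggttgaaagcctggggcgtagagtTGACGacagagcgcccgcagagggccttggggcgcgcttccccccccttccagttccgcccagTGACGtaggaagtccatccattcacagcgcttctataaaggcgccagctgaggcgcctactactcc
Fosb, chr7:19310052-19310295, minus strand: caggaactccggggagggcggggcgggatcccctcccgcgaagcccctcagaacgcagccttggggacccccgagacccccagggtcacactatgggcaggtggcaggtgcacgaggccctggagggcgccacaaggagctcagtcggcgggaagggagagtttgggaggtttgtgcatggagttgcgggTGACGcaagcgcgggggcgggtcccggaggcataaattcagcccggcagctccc
Nr4a1, chr15:101266596-101266845, plus strand: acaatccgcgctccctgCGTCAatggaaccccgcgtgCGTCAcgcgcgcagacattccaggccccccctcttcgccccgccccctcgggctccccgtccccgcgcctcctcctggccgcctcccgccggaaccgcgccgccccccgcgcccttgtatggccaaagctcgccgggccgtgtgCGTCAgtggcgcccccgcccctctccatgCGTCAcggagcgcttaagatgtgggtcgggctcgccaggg
Dusp1, chr17:26508520-26508722, minus strand: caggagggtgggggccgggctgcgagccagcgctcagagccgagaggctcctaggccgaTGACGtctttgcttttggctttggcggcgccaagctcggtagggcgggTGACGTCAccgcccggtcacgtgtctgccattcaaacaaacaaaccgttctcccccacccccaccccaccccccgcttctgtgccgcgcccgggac
The cores of Fos began at positions -129 and -66 from the RefSeq start, that of Fosb at -60 and those of Nr4a1 at -233, -213, -69 and -40. In Dusp1 the full CRE began at -143 and a separate core at -191. These matches describe the letters only and were not tied to the counts.

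Per length of exon, Fos was the most abundant member in control neurons, at 86.7 ± 24.3 CPM per kb (SD, n = 4 mice). Dusp1 followed at 23.7 ± 8.77, and the mice of these 2 genes did not overlap. Egr1 (8.24 ± 2.96), Jund (6.89 ± 1.19), Nr4a1 (5.06 ± 2.15) and Fosb (3.14 ± 0.967) came next, each with mice that overlapped those of its neighbour. Junb, Ier2 and Fosl2 lay between 1.37 and 1.85 CPM per kb and overlapped one another in the same way, and Arc was lowest at 0.527 ± 0.322. In Nav-Tsc2 neurons the order at the top differed: Dusp1 came first at 61.8 ± 4.81 CPM per kb and Fos at 50.3 ± 4.87, with overlapping mice, and Jund came after them at 12.9 ± 1.46.

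**Figure D1:**
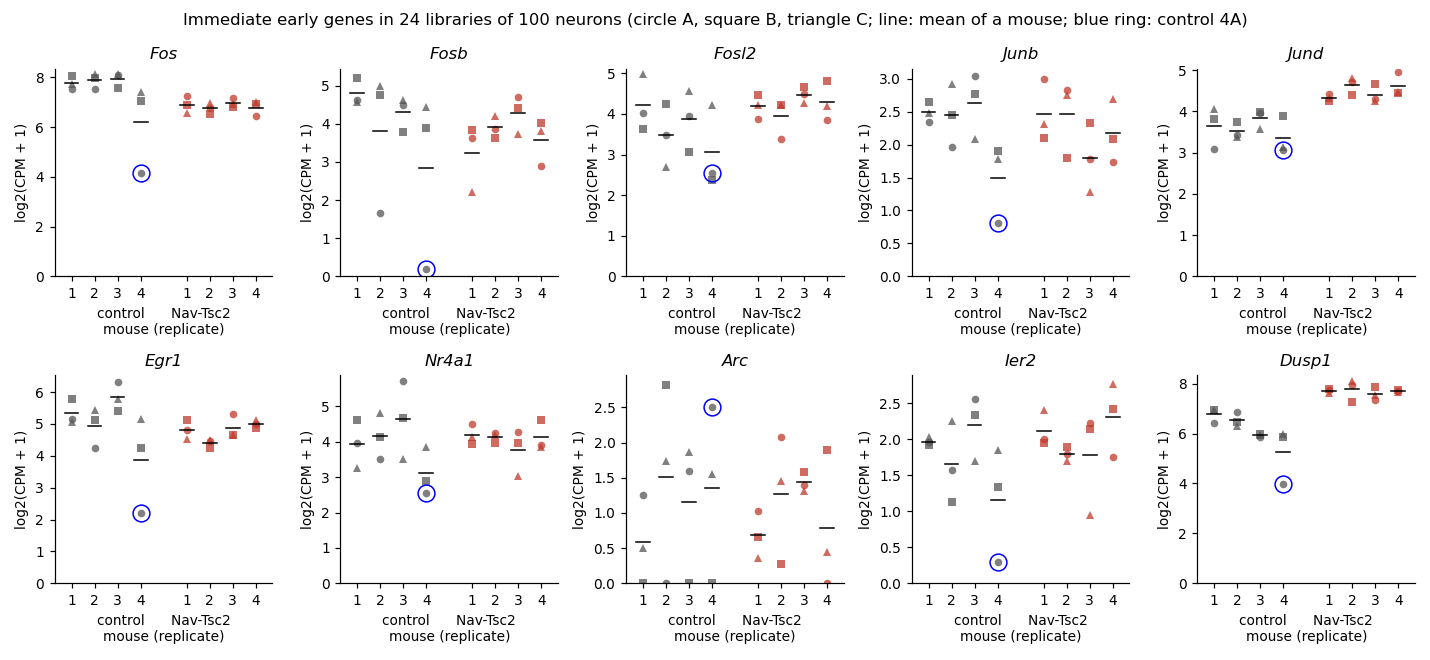
Level of each member in the 24 libraries, as log2(CPM + 1), by mouse; circles, squares and triangles are libraries A, B and C, black lines the mean of a mouse, and the blue ring marks control 4A. Dusp1 and Jund lie higher in every Nav-Tsc2 library than in every control library, and the ringed library lies below all others for 8 of the 10 genes.

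Between the genotypes, 3 members were called: Dusp1 and Jund were higher and Fos was lower in Nav-Tsc2 neurons. The called members thus did not share a direction. The other 7 did not pass the test, and without control 4A the calls were again 1 lower and 2 higher. Of all 17178 genes tested, 9.12% were called higher and 8.00% lower, against 2 and 1 of the 10 members, and the median log2 fold change was -0.12 over the members and 0.01 over all genes. The test was edgeR's quasi-likelihood F-test on the summed counts of the 8 mice, with calls at a Benjamini-Hochberg adjusted p under 0.05 and a difference beyond 0.5 on the log2 scale in either direction. In Nav-Tsc2 libraries the glial markers (9 genes) summed to 430 to 1109 CPM, against 1246 to 2093 CPM in control libraries, mostly through S100b, a glial gene that large DRG neurons also express (939 ± 166 CPM in control and 98.6 ± 71.2 CPM in Nav-Tsc2 mice, SD, n = 4), and the mural cell markers (4 genes) to 11.9 to 238 CPM against 3.10 to 85.2 CPM. The highest mural sums came from Rgs5 in single mice. It was at 90.6, 1.19, 0.800 and 124 CPM in Nav-Tsc2 mice 1 to 4 and at 2.24, 1.23, 0.724 and 38.7 CPM in control mice. Rgs5 was not called between the genotypes (adjusted p = 0.361 from edgeR). Of 3 mural markers tested, 2 were higher in Nav-Tsc2 mice, Acta2 at 7.25 against 0.131 CPM and Pdgfrb at 14.8 against 6.89 CPM. Of the endothelial markers tested, 3 of 4 were higher in Nav-Tsc2 mice: Flt1 was at 8.56 CPM against 0.0338 CPM, Ly6c1 at 2.63 against 0.0182 CPM and Kdr at 1.76 against 0.358 CPM, and Cldn5 stayed under 1 CPM in every library. Egfl7, the most abundant of the list, was not called, at 13.8 against 16.5 CPM. Pecam1, which was not tested, was at 0.315 against 0.422 CPM. Of 5 macrophage and leukocyte markers tested, 1 was higher, Cx3cr1, at 5.71 against 0.0328 CPM, and C1qa stayed under 1 CPM in every library. The rest of those tested were not called. Among them Csf1r was at 3.71 against 0.803 CPM, Cd68 at 2.03 against 0.495 CPM and Aif1 at 1.10 against 0.870 CPM. C1qb went the other way, at 0.574 against 1.75 CPM, as did Ptprc, which was not tested, at 0.0129 against 0.203 CPM. Of the glial markers none was under 1 CPM in all libraries of a genotype. The part of these cells in the members' values was not tested, and for each member fewer cells expressing it and less RNA per cell cannot be told apart.

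Among the Fos subunits of AP-1, which bind DNA only as dimers with a Jun partner, Fos itself (ENSMUSG00000021250.13, chromosome 12, 85473890 to 85477273, GRCm38) was at 224, 242, 230.4 and 119 CPM in control mice 1 to 4 and at 120.3, 107, 133 and 113 CPM in Nav-Tsc2 mice 1 to 4. Control mouse 4, which includes library 4A, lay within the Nav-Tsc2 range, and the other 3 control mice lay well above it. Fos fell 1.72-fold (log2 fold change -0.78, standard error, SE, 0.20 and adjusted p = 0.0220 from edgeR). Over libraries, the control values ran from 17.0 to 284 CPM with a median of 202, and without 4A the lowest was 133 CPM. Nav-Tsc2 libraries ran from 86.3 to 150.1 CPM with a median of 118. Without 4A the log2 fold change was -0.85 (SE 0.14, adjusted p = 0.00281 from edgeR). The call was lost, with adjusted p between 0.0519 and 0.0674 from edgeR, on leaving out control mouse 1 or 2 or Nav-Tsc2 mouse 1, 2 or 4. It was also lost when the 24 libraries were kept apart with a random mouse effect (adjusted p = 0.134 from limma) and when each library was given equal weight (adjusted p = 0.215 from limma). Over all 17 alternatives the adjusted p ranged from 0.000587 to 0.215.

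Fosb, a Fos paralogue whose truncated splice product accumulates with repeated stimulation, was at 27.4, 20.6, 17.3 and 13.2 CPM in control mice and at 9.18, 14.0, 20.5 and 12.2 CPM in Nav-Tsc2 mice. The groups overlapped, and the log2 fold change of -0.49 (SE 0.28) did not pass (adjusted p = 0.266 from edgeR). Fosl2, a Fos relative that is induced more slowly and lasts longer, was at 19.5, 10.5, 12.6 and 10.5 CPM in control mice. It was at 17.4, 15.6, 20.9 and 20.6 CPM in Nav-Tsc2 mice. Here 3 of the 4 control mice lay below every Nav-Tsc2 mouse and control mouse 1 lay among them, and the log2 fold change of 0.49 (SE 0.22) did not pass (adjusted p = 0.156 from edgeR). Without control mouse 1 it was 0.73 (adjusted p = 0.0204 from edgeR), where the adjusted p over all alternatives ran from there to 0.308.

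Of the Jun subunits, Jund (ENSMUSG00000071076.5, chromosome 8, 70698949 to 70700616), the Jun protein with the highest basal and least inducible expression in many cells, rose 1.87-fold. Its control mice were at 12.5, 10.4, 13.8 and 9.38 CPM and its Nav-Tsc2 mice at 19.4, 23.6, 19.4 and 23.6 CPM. All Nav-Tsc2 libraries (18.0 to 29.8 CPM) lay above all control libraries (7.32 to 15.6 CPM). The log2 fold change was 0.90 (SE 0.16, adjusted p = 0.00452 from edgeR), and 0.88 without 4A. Gm11175, annotated on the opposite strand, covers 52.6% of the single Jund exon, and since the strand setting of the counting is not given in the sources used here, reads of the pair may not have been separated. Junb, an inducible Jun protein that restrains Jun activity, was at 4.64, 4.85, 5.50 and 2.07 CPM in control mice and 4.86, 4.46, 2.35 and 3.62 CPM in Nav-Tsc2 mice. These groups overlapped over nearly their whole range (log2 fold change -0.16, SE 0.37, adjusted p = 0.811 from edgeR).

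Egr1, a zinc finger factor that is among the most used markers of neuronal activation, was at 40.4, 32.6, 53.1 and 21.6 CPM in control mice. In Nav-Tsc2 mice it was at 27.3, 20.0, 32.6 and 30.8 CPM. The range of the Nav-Tsc2 mice lay mostly inside that of the controls, and the log2 fold change of -0.41 (SE 0.26) did not pass (adjusted p = 0.302 from edgeR). Nr4a1, an orphan nuclear receptor that regulates metabolism and survival genes after stimulation, was at 15.5, 19.0, 27.3 and 9.26 CPM in control and 17.7, 16.4, 14.6 and 18.3 CPM in Nav-Tsc2 mice. The control mice lay on both sides of the Nav-Tsc2 mice (log2 fold change -0.09, SE 0.28, adjusted p = 0.870 from edgeR).

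Arc, whose protein drives endocytosis of AMPA receptors at synapses, was near the detection limit. It was at 0.525, 2.69, 1.09 and 2.15 CPM in control mice and 0.638, 1.47, 1.65 and 1.30 CPM in Nav-Tsc2 mice, and 4 control and 1 Nav-Tsc2 library held no Arc read. A floor of 3 reads corresponds to 0.105 to 0.224 CPM in those 5 libraries, counting error only. The genotypes overlapped (log2 fold change -0.35, SE 0.56, adjusted p = 0.723 from edgeR). Ier2, a small nuclear regulator of transcription, was at 2.90, 2.48, 3.82 and 1.67 CPM in control and 3.44, 2.51, 2.84 and 4.21 CPM in Nav-Tsc2 mice. These mice overlapped as well (log2 fold change 0.26, SE 0.34, adjusted p = 0.652 from edgeR).

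Dusp1 (ENSMUSG00000024190.6, chromosome 17, 26505590 to 26562128), the nuclear phosphatase that switches MAP kinases off again, showed the largest genotype difference of the 10. Control mice 1 to 4 were at 111, 93.0, 60.9 and 48.1 CPM and Nav-Tsc2 mice at 211, 217, 181 and 209.6 CPM. Every Nav-Tsc2 library (152 to 278 CPM) exceeded every control library (14.8 to 123 CPM). Dusp1 rose 2.61-fold (log2 fold change 1.39, SE 0.23, adjusted p = 0.00311 from edgeR). Without 4A the log2 fold change was 1.33 (SE 0.20, adjusted p = 0.00161 from edgeR), and over all alternatives the adjusted p was at most 0.013. Within controls, both male mice lay above both female mice, and 4A was lowest of all.

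**Figure D2:**
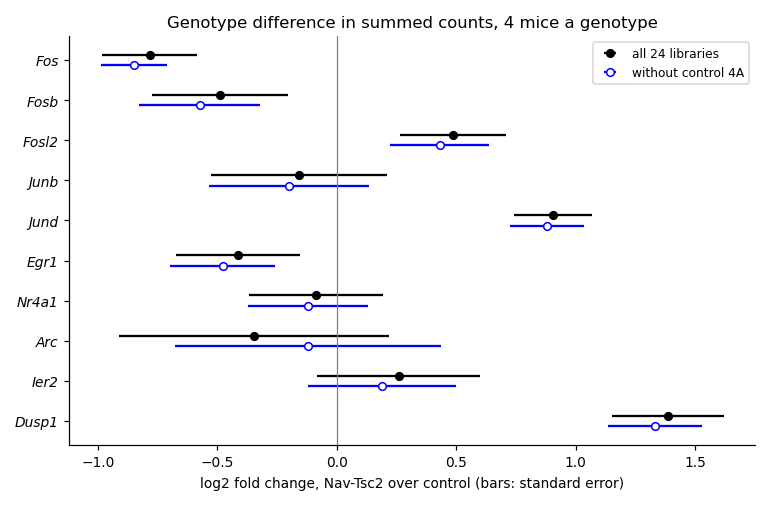
Log2 fold change of each member, Nav-Tsc2 over control, from edgeR on 4 mice a genotype, with standard errors as bars; black points use all libraries and blue open points leave out control 4A. Dusp1 (1.39) and Jund (0.90) lie to the right and Fos (-0.78) to the left, and leaving out the library moved Fos to -0.85.

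Control 4A was the lowest of the 24 libraries for 8 of the 10 members, the exceptions being Fosl2 and Arc. Fos was at 17.0 CPM there, against a median of 215 CPM in the other 11 control libraries, and Egr1 at 3.66 CPM against 34.8 CPM. Dusp1 was at 14.8 CPM against 78.8 CPM, Junb at 0.747 against 4.46 CPM and Nr4a1 at 4.86 against 14.6 CPM. Fosb had 2 reads and Ier2 3 reads in it, where the other control medians were 22.9 and 2.78 CPM. Arc went the other way, at 4.71 CPM against a median of 1.38 CPM. The library was thus low for most members, by unequal amounts. Of the 7 members with a median of at least 10 CPM, 4 were under 25% of that median, as were 3.43% of the 7992 genes at this level. The library was singled out by the values of the members, so this count only describes it. The share of genes was 2.64% for control 2A and 2.74% for control 3A, each against the other 11 control libraries. Libraries 4B and 4C, from the same mouse, were not low to this degree: Fos was at 133 and 171 CPM in them and Egr1 at 18.1 and 34.3 CPM.

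Genes outside the members were at uneven levels in the same library. Jun, the main dimer partner of Fos, was at 11.1 CPM against a median of 62.9 CPM, and Atf3, an injury-induced AP-1 relative, at 15.99 against 68.5 CPM. Zfp36, which destabilizes messages of immediate early genes, was at 0.448 against 64.2 CPM, and Socs3, a cytokine feedback inhibitor, at 0.672 against 31.2 CPM. Over lists, with genes of at least 10 CPM, the median level in 4A was 18.8% of the other control libraries for 7 members, 23.3% for 3 AP-1 partners, 57.0% for 8 feedback inhibitors and 65.8% for 14 other immediate early genes. It was 83.0% for 19 genes of the inducing kinase and CREB or SRF pathway, 109% for 12 heat shock genes, 96.3% for 7 neuron markers and 98.7% over all 7992 genes. Of these 12 heat shock genes, which also respond to dissociation, none was at its lowest of 24 libraries there. The 2 heat shock genes under 10 CPM, the strongly inducible Hspa1a and Hspa1b, were at 0.299 CPM against a median of 0.797 CPM and at 0.224 against 1.88 CPM, the latter being the lowest of 24 libraries. The genes Jun, Zfp36, Hspa1a and Hspa1b were named after their values were seen. The cause of the low values was not tested.

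**Figure D3:**
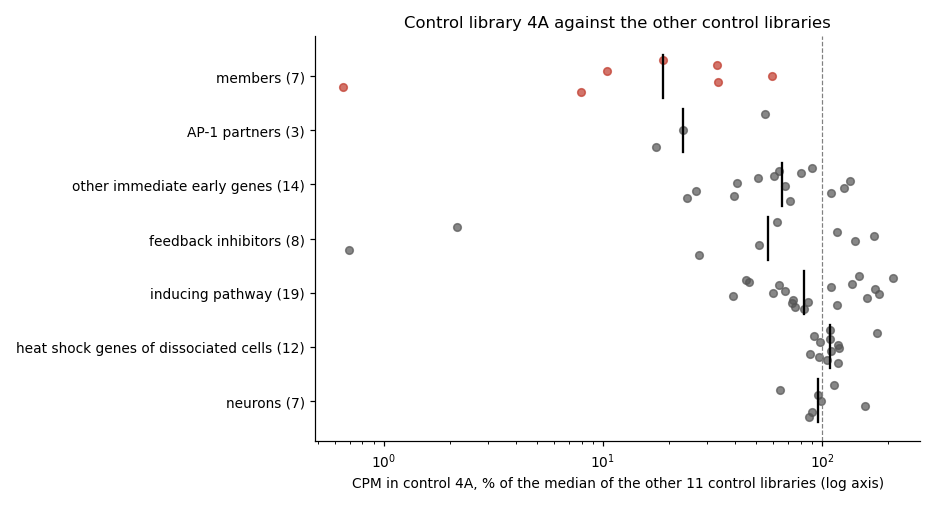
CPM of single genes in control 4A as a percentage of the median of the other 11 control libraries, on a log axis, for genes with a median of at least 10 CPM; each point is a gene, black bars are list medians, and the number of genes stands in brackets. The 7 members have a median of 18.8%, whereas heat shock genes and neuron markers lie around 100% (109% and 96.3%).

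The spread between libraries of a mouse was compared with that of other genes at the same level, as the biological coefficient of variation (BCV, the part of the relative spread that counting does not explain). With all 24 libraries, the BCV was 37.6% for Fos, where the trend for genes of its level was 21.7%. It was 71.1% against 39.3% for Fosb, 39.7% against 29.9% for Egr1 and 28.4% against 21.8% for Dusp1. For Jund, at 26.1% against 39.1%, Junb (48.5% against 74.6%) and Ier2 (56.2% against 84.9%) the spread was below the trend. In all, 7 of the 10 members lay above their trend, as did 36.4% of the 17413 genes fitted, and the ratio to the trend had a median of 1.22 over members and 0.888 over all genes. Without 4A, 4 members lay above, with a median ratio of 0.967, and the BCV fell to 19.5% for Fos, 27.4% for Egr1 and 18.3% for Dusp1. The share and ratio over all genes were not computed without 4A, so this count has no background of its own. Fosb stayed above its trend at 50.7% against 36.1%. Fosb also had a second low library, control 2A, at 2.17 CPM, where 2B and 2C had 25.8 and 30.7 CPM.

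**Figure D4:**
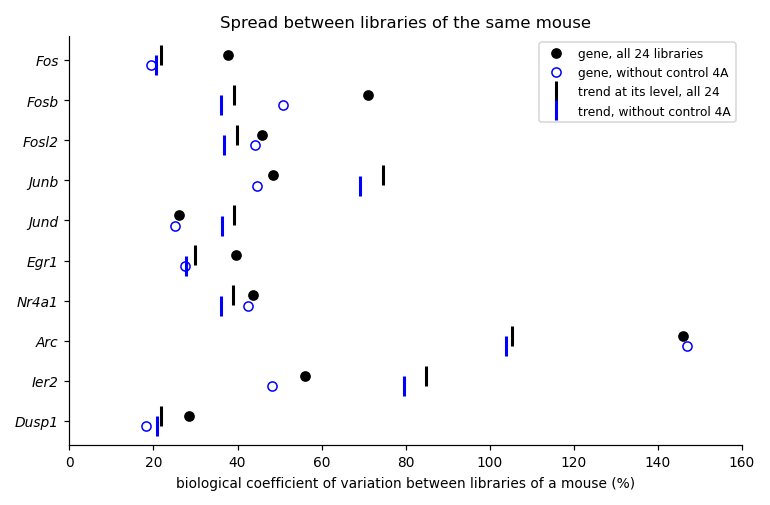
Biological coefficient of variation between libraries of a mouse for each member (points) beside the trend of all genes at the same level (vertical ticks), with all 24 libraries in black and without control 4A in blue. Without that library Fos moves from 37.6% to 19.5%, whereas Arc stays near 146%.

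Within a mouse, the ratio of the highest to the lowest library had a median over mice of 1.44 for Dusp1, 1.48 for Fos, 1.36 for Jund and 1.63 for Egr1. For Nr4a1 it was 2.60, and for Arc, over mice in which all 3 libraries held reads, 3.65. In control mouse 4 the ratio reached 10.0 for Fos and 9.38 for Egr1. The SD of log2(CPM + 1) within mice was 0.68 for Fos and 0.46 for Dusp1, and the SD between mouse means of a genotype was 0.59 and 0.48. Without 4A these were 0.28 and 0.25 within mice and 0.24 and 0.31 between mouse means. The gap was wider for Fosb (1.15 within and 0.67 between), Arc (0.93 and 0.39), Fosl2 (0.64 and 0.39) and Jund (0.30 and 0.18), and without 4A these were 0.84 and 0.43, 0.89 and 0.39, 0.64 and 0.33, and 0.30 and 0.15. The SD within mice was the larger of both for 9 of the 10 members, all but Dusp1, with and without 4A. For Egr1 without 4A both were nearly equal (0.3993 within and 0.3992 between). A mouse mean averages its libraries, so with no mouse difference its SD is expected to be the smaller. This order therefore does not show that libraries differed more than mice, and its share over all genes was not computed.

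Whether mice of a genotype differed more than their libraries was tested with edgeR's quasi-likelihood F-test over 24 libraries. No member was called (0 of 10), against 0.884% of 17413 genes. At an unadjusted p under 0.05 there was 1 member by edgeR, Dusp1 (adjusted p = 0.324), and 2 by DESeq2, which also called 0 after adjustment. Over all genes 11.9% (edgeR) had such a p, and 3028 genes by DESeq2 (run without the low-count filter here and below), of which 1052 passed after adjustment. The remaining adjusted p values from edgeR ran from 0.452 for Egr1 to 0.996 for Arc. On simulated counts with the same BCV for every gene, this test recovered 90 of 100 genes changed 4-fold and 19 of 100 changed 2-fold. The change was placed in 1 mouse of each genotype, and these shares do not describe single members.

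Some of the members, foremost Fos, Fosb and Egr1, deviated together from library to library. Over the 24 libraries, as deviations from the mouse mean of log2(CPM + 1), the 45 pairs of members had a median Pearson's r of 0.33, and 37 were above 0. The strongest pairs were Fos and Egr1 (0.91), Fosb and Egr1 (0.89) and Fos and Fosb (0.86). Without 4A the median was 0.20, with 29 pairs above 0, and the same pairs were at 0.73, 0.76 and 0.76. Without all libraries of control mouse 4, which leaves 21, the median was 0.17, and these pairs were at 0.72, 0.79 and 0.76. Fosl2 and Nr4a1 were at -0.37 in those 21 libraries. Other pairs depended on 4A. Over the 24 libraries Dusp1 was at 0.79 with Fos, 0.53 with Fosb and 0.62 with Egr1, and without 4A alone at 0.06, -0.20 and -0.19. With the same genes Jund went from 0.25, 0.18 and 0.16 to -0.10, -0.05 and -0.15. Arc, near the detection limit, went from -0.14, 0.17 and -0.04 to 0.56, 0.67 and 0.46 with them. These values are descriptions over libraries that share mice, depth and amplification, and pairs of other genes were not computed beside them.

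Among 8439 other genes with a mean of at least 10 CPM, the 10 most like the mean of the members over 24 libraries were Socs3 (r = 0.85), Frs2, Eif2ak1, Tcn2, Wdr36, Ska2, Casp12, Carns1, Gripap1 and Plekha1 (r = 0.79), where all genes had a median of 0.01. Without 4A the 10 were all others, led by Mettl15 (r = 0.73), Zfp287 and Psmd1. Socs3 was at 0.63 there, just under the tenth of these genes, Vrk1 (0.64). The 3 AP-1 partners at this level had a median r of 0.73, falling to 0.33 without 4A. For 8 feedback inhibitors it was 0.44 and 0.26, for 14 other immediate early genes 0.36 and 0.17, and for 12 heat shock genes -0.06 and 0.04. These likenesses were not tested.

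No member was called between the sexes (0 of 10 by edgeR and by DESeq2), where edgeR called 0.0233% of genes lower and 0.00582% higher in females, and 146 genes had an adjusted p under 0.05 by DESeq2. At an unadjusted p under 0.05 there was 1 member by either tool, against 6.66% of all genes by edgeR and 1977 genes by DESeq2. By edgeR it was Dusp1, lower in females with a log2 fold change of -0.52 (SE 0.17, adjusted p = 0.698 from edgeR). It was at 102 CPM in the 2 male and 54.5 CPM in the 2 female controls, and at 214 and 195 CPM in Nav-Tsc2 mice of either sex. Without the low-count filter Dusp1 was called lower in females (adjusted p = 0.0115 from edgeR), where the adjusted p of the other alternatives ran from 0.192 to 0.942. Sex cannot be told apart here from anything else that went with the replicate number. No genotype by sex interaction was called (0 of 10 by edgeR and by DESeq2, 0.00582% of all genes by edgeR), and 2 members, Fosb and Dusp1, had an unadjusted p under 0.05 by either tool, with adjusted p of 0.505 and 0.338 from edgeR and 0.258 and 0.0599 from DESeq2. Over all genes 9.22% had such an unadjusted p by edgeR and 2105 genes by DESeq2, of which 371 passed after adjustment. On simulated counts with the same BCV for every gene, the interaction test recovered 0 of 100 genes with a 4-fold difference. A count of 0 thus says little, and the simulated share does not describe single members.

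The genes of the other lists, whose part in a response to dissociation was not tested, did not share one direction between the genotypes. Of 7 AP-1 partners tested, 2 rose and 0 fell, with a median log2 fold change of 1.06. Atf3 was at 76.0 ± 23.2 CPM (SD, n = 4) in control and 434 ± 32.6 CPM in Nav-Tsc2 mice (log2 fold change 2.51), and Mafk, a small Maf protein, at 3.96 ± 1.41 and 9.25 ± 0.846 CPM (1.22). Of the Egr and Nr4a relatives, 2 of 6 had enough counts and neither was called. The more abundant, Nr4a2, was at 2.93 CPM in control mice (log2 fold change -0.31, adjusted p = 0.597 from edgeR). The other close relatives of Egr1 and Nr4a1 were at lower levels in control mice, most with too few counts to be tested.

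Of 24 other immediate early genes, 6 rose and 5 fell, with a median of 0.23. Those that rose included Gadd45a, a DNA damage and stress sensor (log2 fold change 2.71), Csrnp1, a nuclear factor (1.99), and Rhob, a small GTPase (0.82). Among those that fell were Bdnf, a neurotrophin (-1.32), Btg2, an antiproliferative factor (-1.07), and Plk2, a kinase of synaptic scaling (-0.80). The list thus split almost evenly. Feedback inhibitors fell in 3 and rose in 0 of 14 cases, with a median of -0.29, the 3 being Spry4 (-1.93), Spred1 (-1.22) and Spry2 (-0.65), which restrain Ras to ERK signalling. Dusp1, which rose, acts on the same cascade at the level of the kinases.

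In the inducing pathway 4 of 26 genes rose and 2 fell, with a median of 0.21. The kinases Rps6ka3 (0.70), Rps6ka1 (1.08) and Map2k2 (0.73) were higher, and Rps6ka5, a kinase of CREB and histone H3 (-2.22), and Braf (-0.60) were lower. Of 14 heat shock genes 1 rose, Hspb1 (1.54), a small heat shock protein also induced by nerve injury, and 2 fell, Dnajb1 (-0.79) and Hspa8 (-0.65), with a median of -0.15. All of these calls had an adjusted p under 0.05 in edgeR's test, and each list's count stands against 9.12% higher and 8.00% lower over all genes.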

How the data were processed

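Per the labels, reads were aligned with STAR (mm10) and counted per gene with HTSeq. The authors deposited the raw counts, 1 file per library. Versions, annotation and strand setting are not given in the sources used here. The deposited table of DESeq2 fold changes, p-values and normalized counts was not used. In the gene counts, alignments to several places (37.5% to 42.6% of all) are left out. Symbols came from GENCODE M21 (GRCm38), which matched all 10 members. Reads were amplified without molecular identifiers, so counts are not independent molecules. Each library of a mouse was sorted, prepared and sequenced on its own, so the spread between them holds both handling and which 100 cells were taken.

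Counts were summed per mouse, filtered with filterByExpr, TMM scaled and tested in R 4.3.3 with edgeR 4.0.16 (quasi-likelihood F-test). limma 3.58.1 and DESeq2 1.42.0 served for alternatives. The standard error of a log2 fold change was taken as its size over the square root of F. Log values use CPM + 1. The test was run on simulated counts of 17178 genes: the genotype comparison recovered 83 of 100 genes changed 4-fold and 11 of 100 changed 2-fold, with 6 false calls. Every simulated gene had the same BCV, whereas the BCV of the members between mice ran from 19.3% for Jund to 58.4% for Arc. The recovered shares thus do not describe single members. The members and lists were chosen with earlier results of these data known. Named genes were every member, Tsc2, the 3 smallest adjusted p values per list and direction, the most abundant gene of a list with no call, and the 10 genes most like the members (with 3 and the last given without control 4A). S100b, Jun, Zfp36, Hspa1a, Hspa1b and the mural, endothelial, macrophage and leukocyte markers were named after their values were seen.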

Additional observations from a re-analysis of the deposited data

Results flagged for a closer look

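Fos in control replicate 4, at 119 CPM, lay far from the other 3 control mice, which were at 224 to 242 CPM. Its gap to the nearest mouse, as a share of the range of the 4, passed Dixon's limit. This was 1 of 20 groups of 4 mice tested, and chance flags about 1 in 20. The mouse's libraries were at 17.0, 133 and 171 CPM, and the cause was not tested.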

How the results depend on the processing

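Dusp1 and Jund were called higher in all 17 alternatives, with log2 fold changes of 1.21 to 1.60 and 0.82 to 0.99. The number of members called higher was 2, or 3 without control replicate 1. The number called lower, Fos, was 1 in the main test, 0 with a random mouse effect and 0 with equal weight for each library, and 0 to 1 on leaving out 1 mouse at a time. The cause was not tested. The number was also 1 without control 4A. Equal weights moved the median of all genes to 0.135 on the log2 scale, and there the Fos difference was -0.60.
Some members that were not called changed sign. Nr4a1 reached 0.0726 with a random mouse effect, 0.12 with equal weights and -0.30 to 0.19 on leaving out mice. Arc reached 0.90 and 0.40 under the first 2 of these settings and ran from -0.64 to 0.0153 on leaving out mice. Fosb reached 0.00138 with equal weights, and Junb ran from -0.39 to 0.0168 on leaving out mice.
Between the sexes, 0 members were called lower in females, and 1 without the low-count filter. On leaving out mice, the log2 difference (female minus male) ran from -0.31 to 0.0642 for Fos, -0.36 to 0.12 for Fosb, -0.14 to 0.25 for Fosl2, -0.12 to 0.11 for Jund, -0.0345 to 0.47 for Egr1, -0.38 to 0.24 for Nr4a1, -0.0270 to 0.91 for Arc and -0.12 to 0.35 for Ier2. Without control 4A it was 0.0232 for Fosb and 0.0402 for Fosl2.
The main test treated the mice as unpaired. Deviations of the same-numbered mice correlated across 8445 genes at 0.0831, 0.108, 0.0187 and 0.107. All were positive, but not all were over the limit of 0.1 set for pairing. Control and Nav-Tsc2 mice with different numbers correlated at -0.172 to 0.112, mostly negative. Missing this limit does not show that the mice were unpaired, and pairing was not tested further. With the replicate block, 1 member was lower and 2 were higher, as without it, and Nr4a1 was at 0.0102. Over all genes the block gave 1116 lower and 1329 higher.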
